A study of Mus musculus with 12 samples.

Results

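The glucose transporter Slc2a1 and 9 enzymes of glycolysis were read by 13 probe sets, out of 45101 on the array. The set holds 3 probe sets for Slc2a1, 2 for Pfkp and 1 each for Hk2, Tpi1, Gapdh, Pgk1, Pgam1, Eno1, Pkm and Ldha. These probe sets were chosen by identifier, with results of the same arrays already known, so the values of tumors against lungs describe the set and do not test it. The gene names were given with the identifiers, since no table used here pairs the probe sets with genes, and whether the tissues carried the markers of their labelled cell types was not analysed here.

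Gene expression was compared in 3 groups of 4 arrays each, for a total of 12: lung of non-transgenic FVB mice, histologically normal lung adjacent to tumor in cyclin E transgenic FVB mice, and lung tumor (adenocarcinoma) of cyclin E transgenic FVB mice. FVB is an inbred strain, and the mice were labelled as male and 7 to 11 months old. The transgenic mice carried wild-type human cyclin E, a driver of entry into S phase, under the human surfactant protein C promoter, which is active in alveolar type II cells. Tumor and adjacent lung therefore shared the transgene, and only the tumor was neoplastic tissue, recognized by gross pathology. Whole tissue was used, so that more cells of a type and more RNA per cell cannot be told apart in any value below. The values are deposited log2 signals, in which a difference of 1 is a doubling; a level can be compared between arrays for 1 probe set but not between probe sets.

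Glycolysis splits glucose into pyruvate in the cytoplasm, with a small yield of ATP and with intermediates that feed the synthesis of nucleotides, lipids and amino acids. Slc2a1 (also called Glut1) brings glucose into the cell, hexokinase traps it as a phosphate, phosphofructokinase commits it to the pathway, and lactate dehydrogenase turns pyruvate to lactate and regenerates NAD+. Many tumors take up much glucose and release lactate even where oxygen is present, which is known as the Warburg effect. The hypoxia-inducible factors and Myc are textbook regulators of many of these genes.

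The RefSeq promoters of the 10 genes (GRCm38.p6) are shown to describe the set. Between genes other than Pfkp the median correlation was 0.91 over the 12 arrays, tumors and lungs included. That value holds the shift between tumor and lung that was known when the set was chosen. The median was 0.35 over the 8 lungs alone, and 0.38 after subtraction of group means without tumor 2. Pfkp, whose probe sets correlated least with the rest of the set, is left out of these values. Shared regulation was not tested. The 250 bases before each start site were searched on both strands for ACGTG, a form of the core of the hypoxia response element. They were also searched for CACGTG, the E-box that Myc and related factors bind. Each CACGTG also holds ACGTG on both strands. The other form of the core, GCGTG, was not searched for, and windows without ACGTG, such as that of Pfkp, can hold it. ACGTG was present for 6 of the 10 genes: Slc2a1, Hk2, Pgk1, Pgam1 and, in 1 of 2 promoters each, Pkm and Ldha. It was absent from these windows for Pfkp, Tpi1, Gapdh and Eno1. Over all RefSeq promoters of the same length, 18.5% of 27025 genes held ACGTG. By window, it was in 6 of the 14 windows of the members and in 16.6% of all 32851 windows, or 21.4% of the 14300 windows with a GC content at least as high as the lowest of the members (54.4%, the other window of Ldha). CACGTG was present for 1 of the 10 genes, Ldha, against 6.86% of all genes, and in 1 of the 14 windows, against 8.53% of the windows of such GC content. A match is a run of letters and not a measured site, and a window without one says nothing of the factor. The windows below run 5′ to 3′ on the strand of the gene and end at the base before the start site, with matches in capitals (CACGT is ACGTG read on the other strand). Slc2a1 (chr4:119108495-119108744, plus strand), Hk2 (chr6:82774455-82774704, minus strand), Pgam1 (chr19:41911621-41911870, plus strand) and Ldha (chr7:46845554-46845803, plus strand) show matches, whereas Tpi1 (chr6:124814159-124814408, minus strand) and Pfkp (chr13:6648772-6649021, minus strand) have none and were respectively the gene with a large and the gene with a small difference between tumor and lung.
Slc2a1: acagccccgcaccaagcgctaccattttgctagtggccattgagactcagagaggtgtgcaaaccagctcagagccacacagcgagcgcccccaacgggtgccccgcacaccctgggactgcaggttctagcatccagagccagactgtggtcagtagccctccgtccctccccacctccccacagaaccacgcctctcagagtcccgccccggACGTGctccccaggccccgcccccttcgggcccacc
Hk2: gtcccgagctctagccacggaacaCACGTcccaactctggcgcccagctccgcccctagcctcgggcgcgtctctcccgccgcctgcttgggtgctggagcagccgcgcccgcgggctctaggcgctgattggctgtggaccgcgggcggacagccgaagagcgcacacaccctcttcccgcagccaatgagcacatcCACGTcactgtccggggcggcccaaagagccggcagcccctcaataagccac
Pgam1: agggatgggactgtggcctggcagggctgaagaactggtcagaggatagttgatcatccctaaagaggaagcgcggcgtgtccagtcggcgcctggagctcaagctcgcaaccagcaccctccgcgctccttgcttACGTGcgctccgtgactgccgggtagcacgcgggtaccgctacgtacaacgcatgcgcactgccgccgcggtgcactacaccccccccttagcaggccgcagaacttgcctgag
Ldha: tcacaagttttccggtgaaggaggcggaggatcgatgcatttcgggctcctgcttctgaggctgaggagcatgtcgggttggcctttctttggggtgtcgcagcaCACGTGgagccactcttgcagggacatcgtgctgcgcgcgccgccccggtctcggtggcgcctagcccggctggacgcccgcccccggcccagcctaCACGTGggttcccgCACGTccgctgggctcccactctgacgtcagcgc
Tpi1: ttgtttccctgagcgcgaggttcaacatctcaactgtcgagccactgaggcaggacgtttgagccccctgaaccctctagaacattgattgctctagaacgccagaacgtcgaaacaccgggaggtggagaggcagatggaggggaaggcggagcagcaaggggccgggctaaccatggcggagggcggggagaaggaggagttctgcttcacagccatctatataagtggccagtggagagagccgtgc
Pfkp: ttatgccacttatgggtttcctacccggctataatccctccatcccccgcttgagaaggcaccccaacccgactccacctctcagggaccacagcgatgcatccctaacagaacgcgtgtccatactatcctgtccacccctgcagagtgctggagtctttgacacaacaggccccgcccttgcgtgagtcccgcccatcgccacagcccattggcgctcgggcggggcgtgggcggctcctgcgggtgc
Counted back from the start site, the match of Slc2a1 begins at base -36, those of Hk2 at -226 and -52, and that of Pgam1 at -114.

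Across the set, signals were higher in tumor than in adjacent lung by a median of 1.27 on the log2 scale, with a range from 0.24 to 1.87 over the 13 probe sets, whereas the median of all 23538 probe sets tested was 0.07. Against non-transgenic lung the median was 1.28, with a range from -0.11 to 1.81, and the median of all probe sets tested was again 0.07. With limma and Benjamini-Hochberg adjustment over all probe sets tested, 11 of the 13 were called higher in tumor than in adjacent lung, where 13.2% of all probe sets tested were called higher. The same 11 were called higher against non-transgenic lung, where 15.6% of all were. The set had been chosen with these contrasts known, and nothing is read from these counts. Both probe sets that were not called read Pfkp. All 13 had passed the filter on low values. The tumor group was the same 4 arrays in both comparisons, so that they are not independent of each other.

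**Figure D1:**
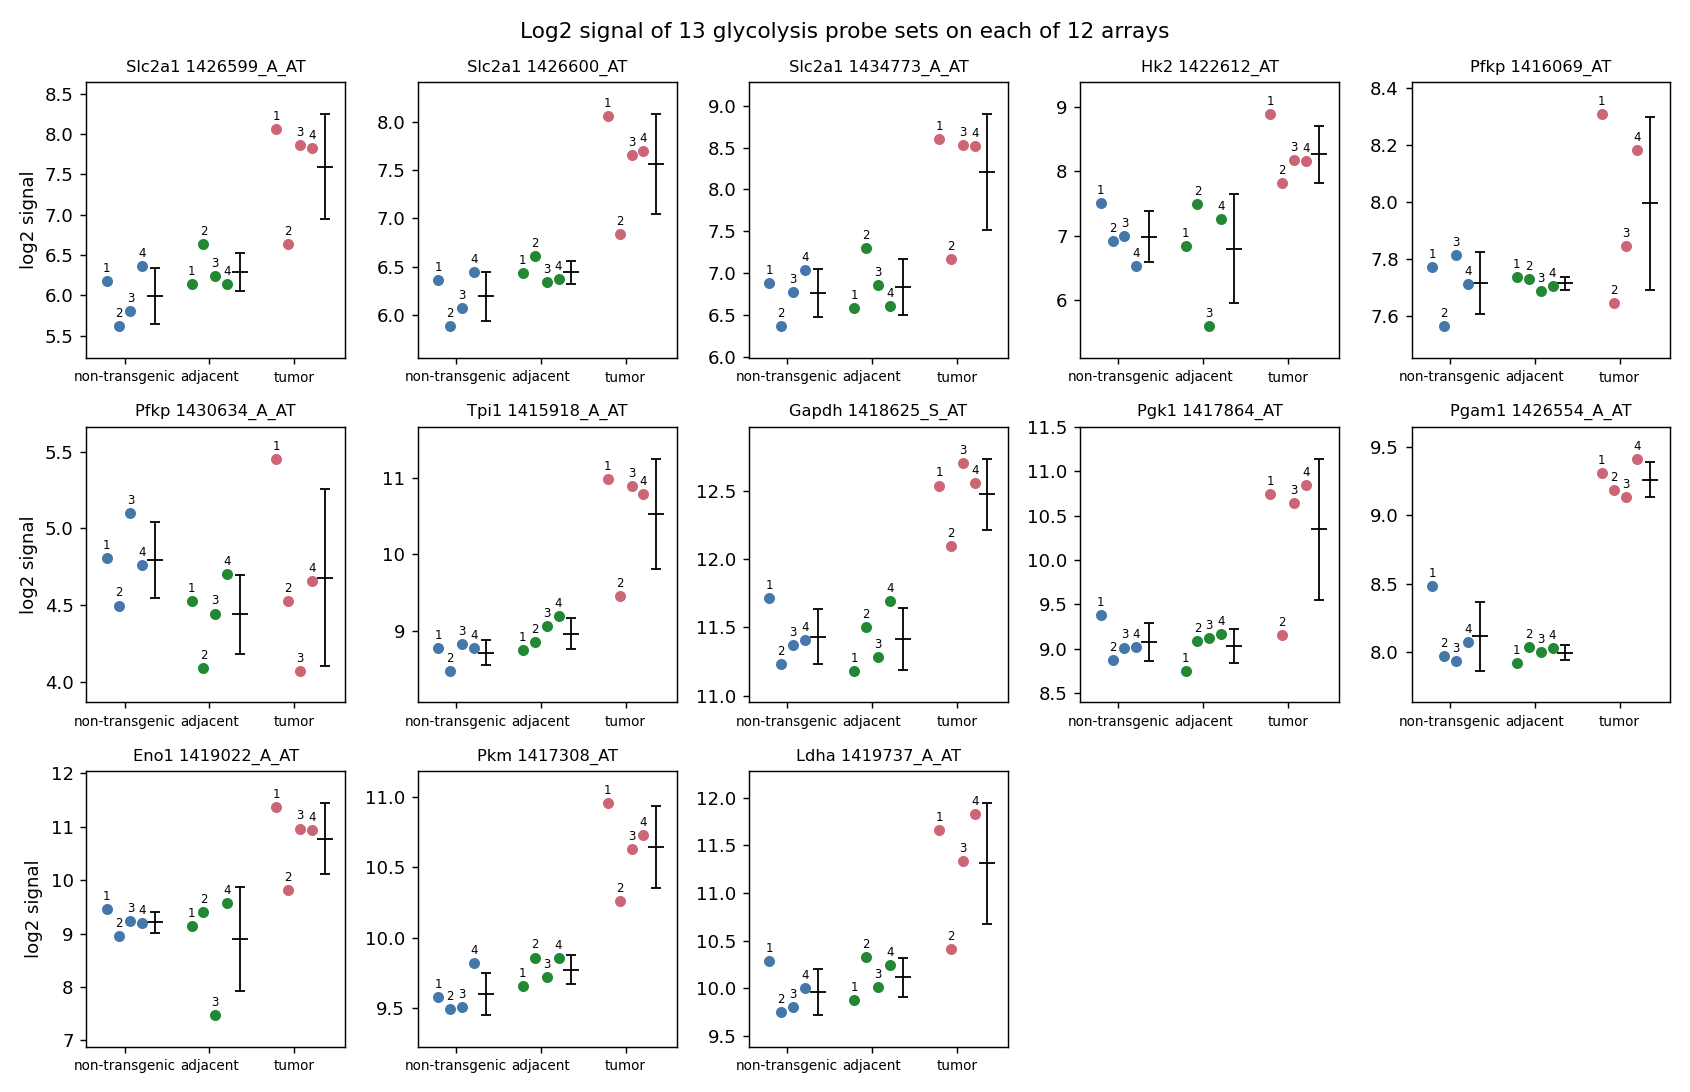
Log2 signal (vertical axis, a separate scale for each panel) of the 13 probe sets on the 12 arrays, with 1 point per array numbered within its group, and the mean and SD of each group (n = 4) beside the points. Tumor 2 is the lowest tumor in 11 of the 13 panels, and adjacent lung 3 lies below every other array for Hk2 and Eno1.

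Glucose uptake was read by 3 probe sets for Slc2a1. With 1426599_A_AT the signals were 6.18, 5.62, 5.80 and 6.37 in non-transgenic lungs 1 to 4, 6.14, 6.64, 6.24 and 6.15 in adjacent lungs 1 to 4, and 8.07, 6.64, 7.86 and 7.83 in tumors 1 to 4. Tumors 1, 3 and 4 were well above all lungs, and tumor 2 was level with adjacent lung 2. The mean in tumor was 7.60 ± 0.65 (SD, n = 4) and in adjacent lung 6.29 ± 0.24 (SD, n = 4), a difference of 1.31 (SE 0.29), or 2.48-fold. The second probe set, 1426600_AT, read 8.06, 6.83, 7.65 and 7.69 in tumors 1 to 4, against 6.34 to 6.61 in adjacent lung and 5.88 to 6.44 in non-transgenic lung. The third, 1434773_A_AT, read 8.60, 7.17, 8.53 and 8.52 in the tumors, against 6.59 to 7.31 in adjacent lung and 6.37 to 7.04 in non-transgenic lung. With this one tumor 2 fell inside the range of the adjacent lungs, by 0.14 below the highest. The differences from adjacent lung were 1.12 (SE 0.23) and 1.36 (SE 0.30), so the 3 probe sets of this gene gave differences of like size, and their signals correlated by 0.97 to 0.99 over the 12 arrays. They read the same RNA on the same arrays and are 1 observation of Slc2a1 rather than 3.

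Hk2, a hexokinase isoform that binds mitochondria and that is low in most adult tissues outside muscle and fat, was read by 1422612_AT. Its signals were 7.51, 6.91, 6.99 and 6.53 in non-transgenic lungs 1 to 4, 6.85, 7.49, 5.59 and 7.26 in adjacent lungs 1 to 4, and 8.89, 7.82, 8.18 and 8.16 in tumors 1 to 4. All 4 tumors were above all 8 lungs, by 0.31 for the nearest pair, and adjacent lung 3 was far below the rest. The difference between tumor and adjacent lung was 1.46 (SE 0.38), or 2.76-fold, and became 1.06 without adjacent lung 3, for which the mean of the adjacent lungs changed from 6.80 ± 0.85 (SD, n = 4) to 7.20 ± 0.33 (SD, n = 3). Against non-transgenic lung the difference was 1.28 (SE 0.38). That call was lost when non-transgenic lung 2, 3 or 4 or tumor 1 was left out, with differences from 1.07 to 1.28.

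Pfkp, the platelet-type subunit of phosphofructokinase, was the gene of the set with the smallest differences. With 1416069_AT the signals in tumors 1 to 4 were 8.31, 7.64, 7.85 and 8.18, against 7.69 to 7.74 in adjacent lung and 7.56 to 7.81 in non-transgenic lung. Tumors 1 and 4 stood above the lungs, tumor 3 lay just above them, and tumor 2 lay among them. The difference from adjacent lung was 0.28 (SE 0.15, 95% confidence interval -0.04 to 0.60), or 1.21-fold. Without tumor 2 it was 0.40 and was called. The other probe set, 1430634_A_AT, was dim, with signals from 4.07 to 5.45 over the 12 arrays against 4.18 for the median of the whole table. It read 5.45, 4.53, 4.07 and 4.66 in tumors 1 to 4, so that tumor 1 was the highest array and tumor 3 the lowest. Its difference was 0.24 (SE 0.26) from adjacent lung and -0.11 (SE 0.26) from non-transgenic lung, and both changed sign when 1 tumor was left out, to -0.021 without tumor 1 and 0.089 without tumor 3. The 2 probe sets of Pfkp correlated by 0.54 over the 12 arrays, less than those of Slc2a1.

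Tpi1 encodes triose phosphate isomerase, which interconverts the 2 triose phosphates so that both can go on through the pathway. With 1415918_A_AT its signals were 8.78, 8.48, 8.83 and 8.77 in non-transgenic lungs 1 to 4, 8.75, 8.85, 9.07 and 9.19 in adjacent lungs 1 to 4, and 10.98, 9.46, 10.90 and 10.78 in tumors 1 to 4. All 4 tumors were above all 8 lungs, tumor 2 by 0.27 and the other tumors by much more. The difference was 1.57 (SE 0.28), or 2.96-fold, from adjacent lung and 1.81 (SE 0.28), or 3.51-fold, from non-transgenic lung. The latter was the largest difference of the set against non-transgenic lung.

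**Figure D2:**
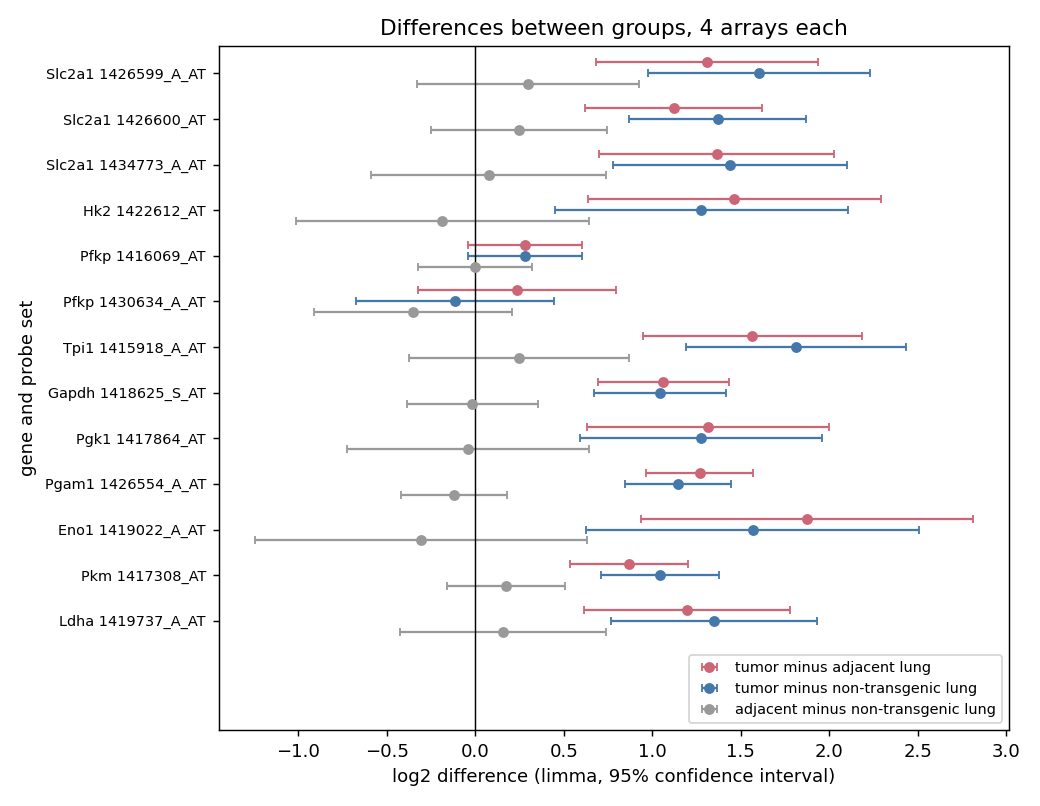
Log2 differences between groups (horizontal axis, points) with 95% confidence intervals from limma (bars), for the 13 probe sets and 3 comparisons of 4 arrays with 4. The red and blue intervals of tumor against both lung groups lie above 0 for all probe sets but the 2 of Pfkp, and the grey intervals of adjacent against non-transgenic lung all include 0.

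Gapdh, the enzyme that oxidizes glyceraldehyde 3-phosphate and that is often used as a loading reference, was higher in every tumor. With 1418625_S_AT its signals were 11.71, 11.23, 11.37 and 11.41 in non-transgenic lungs 1 to 4, 11.18, 11.50, 11.28 and 11.69 in adjacent lungs 1 to 4, and 12.54, 12.10, 12.71 and 12.56 in tumors 1 to 4. The lowest tumor was 0.39 above the highest lung, and the difference from adjacent lung was 1.06 (SE 0.17), or 2.09-fold. The array also carries 3 control probe sets for Gapdh, toward the 3′ end, the middle and the 5′ end of the transcript, which were no part of the set. The 3′ control read 12.37, 11.78, 12.48 and 12.28 in the tumors against 10.87 to 11.39 in the 8 lungs, and the 5′ control read 12.39, 11.45, 12.31 and 12.18 against 10.57 to 11.29. The middle control read 12.36, 11.67, 12.32 and 12.19 in the tumors, and 10.68 to 11.21 in the lungs other than adjacent lung 3, where it was 9.01. All 3 controls were therefore higher in all 4 tumors, as was the member, and tumor 2 was the lowest tumor with each of them. Their signals correlated with those of the member by 0.996 (3′), 0.983 (5′) and 0.853 (middle) over 12 arrays, and the last value was 0.984 without adjacent lung 3. The 3′ signal exceeded the 5′ signal by 0.09 to 0.33 in all arrays but tumor 1, where the difference was -0.02. It was 0.33 in tumor 2, 0.33 in adjacent lung 1 and 0.32 in adjacent lung 4. The part of RNA quality in the values of these arrays was not tested.

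**Figure D3:**
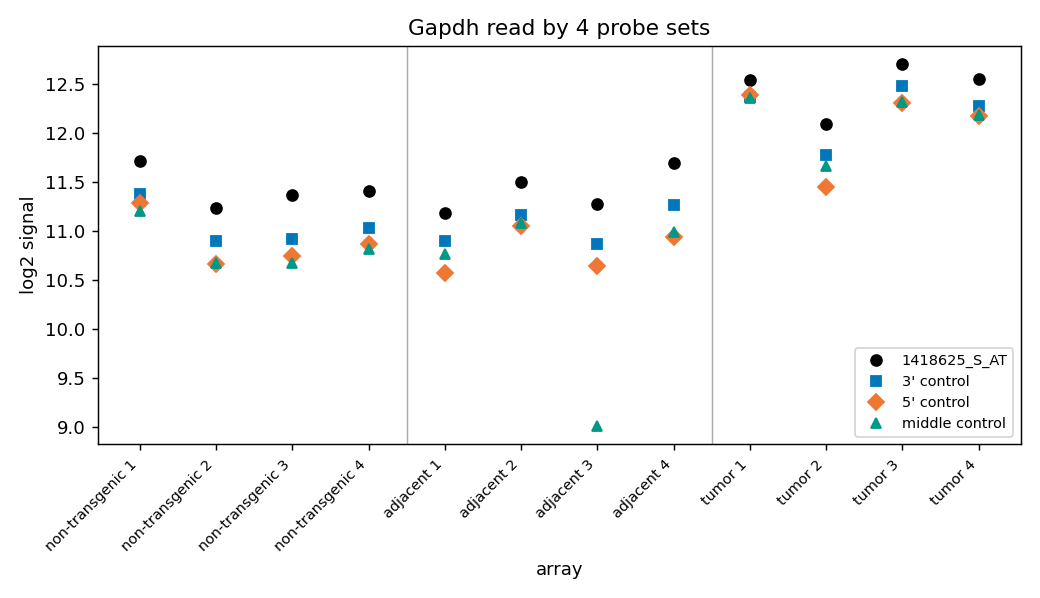
Log2 signal of Gapdh (vertical axis) on each of the 12 arrays (horizontal axis), with 1 symbol for each of 4 probe sets, namely the member and the 3 controls of the array. The 4 symbols move together from array to array except in adjacent lung 3, where the middle control reads 9.01 and the 5′ and 3′ controls read 10.65 and 10.87.

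Pgk1 and Pgam1 encode the next enzymes, phosphoglycerate kinase, which makes the first ATP of the pathway, and phosphoglycerate mutase. For Pgk1 (1417864_AT) the signals were 10.74, 9.16, 10.64 and 10.85 in tumors 1 to 4, against 8.75 to 9.16 in adjacent lung and 8.88 to 9.38 in non-transgenic lung. Tumor 2 was thus at the level of lung, whereas the other tumors were more than 1 log2 unit above every lung. The mean in tumor was 10.35 ± 0.80 (SD, n = 4), and the difference from adjacent lung was 1.32 (SE 0.31), or 1.71 without tumor 2. For Pgam1 (1426554_A_AT) the signals were 8.48, 7.97, 7.94 and 8.08 in non-transgenic lungs 1 to 4, 7.92 to 8.04 in the 4 adjacent lungs, and 9.31, 9.19, 9.14 and 9.42 in tumors 1 to 4. Pgam1 was the member for which the tumors differed least among themselves, with an SD of 0.13, and here tumor 2 was not the lowest tumor. The lowest tumor was 1.10 above the highest adjacent lung, and the difference was 1.27 (SE 0.14), or 2.41-fold, and 1.29 without tumor 2.

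Eno1 and Pkm encode the enzymes that end the pathway, enolase and pyruvate kinase. Eno1 (1419022_A_AT) read 9.45, 8.96, 9.23 and 9.19 in non-transgenic lungs 1 to 4, 9.15, 9.40, 7.48 and 9.58 in adjacent lungs 1 to 4, and 11.38, 9.82, 10.97 and 10.93 in tumors 1 to 4. All tumors were above all lungs, tumor 2 by 0.24, and adjacent lung 3 was the lowest array by a wide margin. The difference from adjacent lung, 1.87 (SE 0.43), or 3.67-fold, was the largest of the set when all arrays were used. Without adjacent lung 3 it was 1.40, below the 1.60 of Tpi1. Against non-transgenic lung it was 1.57 (SE 0.43), and that call was lost without tumor 1, at 1.37. Pkm (1417308_AT) read 10.96, 10.26, 10.63 and 10.73 in the tumors, against 9.66 to 9.86 in adjacent lung and 9.50 to 9.82 in non-transgenic lung. No tumor overlapped any lung, and the difference from adjacent lung was 0.87 (SE 0.15), or 1.83-fold. Pkm has splice forms, M1 and M2, which the single probe set was not used to separate.

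Ldha, the lactate dehydrogenase subunit that favours lactate formation, was read by 1419737_A_AT. Its signals were 10.28, 9.75, 9.81 and 10.00 in non-transgenic lungs 1 to 4, 9.88, 10.33, 10.01 and 10.25 in adjacent lungs 1 to 4, and 11.67, 10.41, 11.33 and 11.83 in tumors 1 to 4. Tumor 2 was 0.09 above the highest lung, and the other tumors were more than 1 log2 unit above it. The difference was 1.20 (SE 0.27), or 2.29-fold, from adjacent lung and 1.35 (SE 0.27), or 2.55-fold, from non-transgenic lung.

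The transcript of pyruvate carboxylase, Pcx, which carries pyruvate into gluconeogenesis and the mitochondrial cycle, is also read by 4 control probe sets of the array. It was not in the set, and it was tested in 12 comparisons with a two-sided exact permutation test. Its 3′ control read 7.23, 7.54, 6.81 and 6.74 in tumors 1 to 4, 6.67, 6.57, 7.19 and 6.75 in adjacent lungs 1 to 4, and 6.53, 6.05, 6.45 and 6.63 in non-transgenic lungs 1 to 4. Tumor 2 was here the highest array and the groups of tumor and adjacent lung overlapped, with a difference of 0.29 (exact permutation p = 0.2, adjusted p = 0.4). Tumor against non-transgenic lung differed by 0.67 without overlap (exact permutation p = 0.029, the smallest that 4 against 4 arrays can give, adjusted p = 0.34). The other 3 controls of Pcx had group means from 3.96 to 4.55, near the median of the table.

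Between transgenic lung adjacent to a tumor and non-transgenic lung, the member differences had a median of 0.00 and ranged from -0.35 for Pfkp (1430634_A_AT) to 0.30 for Slc2a1 (1426599_A_AT). No member was called by limma, and 0% of the 23538 probe sets tested were called in either direction, although 835 probe sets, and 0 members, had an unadjusted p under 0.05. The lowest unadjusted limma p of a member was 0.20, for 1430634_A_AT (adjusted p = 1.00). The ranges of both lung groups overlapped for each of the 13 members, and 4.78% of all probe sets tested did not overlap. The intervals set the size of what could be missed. The 95% confidence interval was -0.42 to 0.18 for Pgam1, -0.39 to 0.35 for Gapdh and -0.16 to 0.51 for Pkm, which lie within 1 log2 unit of 0 on both sides. It was -1.25 to 0.63 for Eno1 and -1.01 to 0.64 for Hk2, which reach a fall of 1 log2 unit but not a rise of 1, and these were the members for which adjacent lung 3 was the lowest of the 12 arrays. Adjacent lung 3 also stood apart over all probe sets tested, at a mean Euclidean distance of 104.7 from the other adjacent lungs, against 66.2 to 69.8 for those, and its median signal was 4.38 where the other 11 arrays had 4.10 to 4.21. For the other 11 members it lay within the range of the 8 lungs.

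Tumor 2 differed from the other tumors by gene. In all, 9 of the 13 members had all 4 tumors above all 4 adjacent lungs, which held for 10.4% of all probe sets tested. The same 9 had all 4 tumors above all 8 lungs, which held for 6.98%. The set was chosen with these contrasts known, and nothing is read from these counts. The 9 include 1426600_AT and 1426599_A_AT, which both read Slc2a1, and for the latter the gap was only 0.0007. Tumors 1, 3 and 4 were each above all 8 lungs for 12 of the 13 members, all but 1430634_A_AT. Averaged on the linear scale, these tumors were 2.12-fold (Pkm) to 4.10-fold (Tpi1) above the mean of the 8 lungs for the 11 members other than those of Pfkp. Along the way from the mean of the lungs to that of tumors 1, 3 and 4, on the linear scale, tumor 2 lay at 3.06% for Pgk1, 14.4% for Ldha, 16.9% for Tpi1 and 20.4% for Eno1. The 3 probe sets of Slc2a1 placed it at 11.5% to 23.2%. It lay higher for Pkm (42.6%), Hk2 (44.4%) and Gapdh (46.9%), and highest for Pgam1 (87.7%). Tumor 2 was thus between the mean of the lungs and that of the other tumors for all 11, close to lung for Pgk1 and close to tumor for Pgam1. Against single arrays, tumor 2 lay within the range of the lungs for Pgk1 and for 1434773_A_AT of Slc2a1. For Pgam1 it was above tumor 3. Over all probe sets tested tumor 2 was also the most distant array of its group, at a mean of 153.9 from the other tumors, against 96.7 to 102.9 for those. The share of tumor cells in tumor 2 was not tested.

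**Figure D4:**
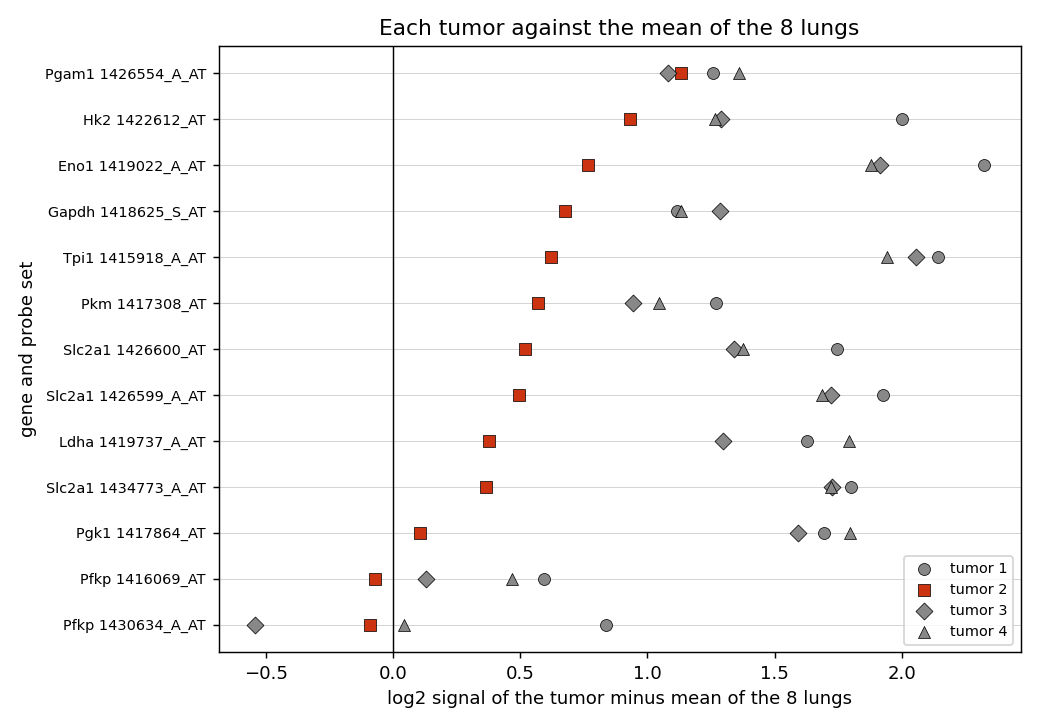
Log2 signal of each tumor minus the mean of the 8 lungs (horizontal axis) for the 13 probe sets (vertical axis), with 1 symbol per tumor and tumor 2 in red. Tumor 2 runs from about lung level for Pfkp and Pgk1 (0.11) to 1.13 for Pgam1, while tumors 1, 3 and 4 lie between 0.94 and 2.32 for all probe sets but those of Pfkp.

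Tumor 1 had the highest signal of the tumors for 9 of the 13 members, and tumors 3 and 4 for 1 and 3. Among the non-transgenic lungs, number 2 was the lowest for 11 of the 13. Over the 12 arrays, the 52 pairs of the 11 probe sets outside Pfkp that read different genes correlated by 0.75 to 0.98, with a median of 0.91, where the points include both tumor and lung. After subtraction of the group means the same pairs ranged from 0.23 to 0.95, with a median of 0.63, and without tumor 2 from -0.01 to 0.91, with a median of 0.38. Over the 8 lungs alone they ranged from -0.19 to 0.92, with a median of 0.35. The highest of these, 0.92 for Hk2 with Eno1, was 0.70 without adjacent lung 3. With the mean profile of the other genes of the set, Ldha had the highest correlation (0.97) and the probe sets of Pfkp the lowest (0.82 and 0.17) over the 12 arrays. Outside the set, 734 of 23525 probe sets (3.12%) correlated by more than 0.9 with the mean profile. The highest were 1437760_AT and 1427404_X_AT (both 0.98), whose genes are not named by the tables used here. Whether probe sets of similar pattern read genes of the set was not tested.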

How the data were processed

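Total RNA of 12 lung samples was made into biotin-labelled cRNA and hybridized to Affymetrix GeneChip mouse genome arrays, 1 array per sample. The values the authors deposited are on the log2 scale (1.50 to 14.51), 1 for each probe set on each array, background corrected and normalized between arrays; the methods name Robust Multichip Average and the submitters' processing notes name GCRMA, and which one made the values was not settled. GCRMA models background from probe sequence, which moves dim probe sets most. Scan dates were not used here, and the number of arrays limits the precision.

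Probe sets above the table median (4.18) in at least 4 arrays were tested: 23538, or 52.3% of those other than the 64 controls. The 3 groups were fitted together without a block in limma 3.58.1 (R 4.3.3), and called probe sets had a Benjamini-Hochberg adjusted p under 0.05. The fit was checked on simulated data. Control transcripts for Pcx were tested with exact permutation tests, adjusted over 12. The 4 samples of a group were taken as separate animals. A limma p-value sets a difference of group means against the spread within groups. That spread was estimated from the 3 groups together and drawn toward that of all probe sets tested.

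The members and lists were chosen with earlier results of these data known. The rule for which probe sets the text names took the 13 members, the Gapdh controls and, per pathway list, the largest changes; lists of other glycolysis, hypoxia, pentose phosphate, proliferation and cell type marker genes were not analysed here, because the tables used do not pair probe sets with genes. The controls of Pcx and the probe sets of similar pattern were chosen outside that rule.

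Alternatives dropped the filter, raised it to 6.47 (the upper quartile of the table), set values under 2.81 (the lower quartile) to that value, quantile-normalized once more, centred arrays on their medians, or left out each array in turn. Others were tumor 2 and adjacent lung 3 left out, a trended robust fit, only the 8 arrays compared, the replicate number or the mouse as a block, the brightest probe set per gene, the methods' analysis of variance and an unequal-variance test. Labels give tumor and adjacent lung of a number neighbouring tissue codes, whereas the methods describe 12 independent samples.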

Additional observations from a re-analysis of the deposited data

Results flagged for a closer look

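Of 48 groups of 4 arrays examined (the 13 members and 3 Gapdh controls in 3 groups), 5 held an array far from the other 3, where chance gives about 1 in 20. In 4 of them the array was tumor 2. The log2 signal of tumor 2 was 6.64 for Slc2a1 with 1426599_A_AT, where the other tumors had 7.83 to 8.07, and 7.17 with 1434773_A_AT, where they had 8.52 to 8.60. For Tpi1 it was 9.46, against 10.78 to 10.98, and for Pgk1 9.16, against 10.64 to 10.85. The 4 values come from 1 array and are not separate observations. The fifth was the middle control of Gapdh in adjacent lung 3, at 9.01 where the other adjacent lungs had 10.77 to 11.09.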

How the results depend on the processing

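The median member difference stayed above 0 under each alternative that gave one, from 1.15 to 1.49 for tumor minus adjacent lung and from 1.14 to 1.61 for tumor minus non-transgenic lung; the brightest probe set per gene was run for the former only, and the analysis of variance gives no median. The counts of members called changed most with an unequal-variance test of the 4 arrays against 4, adjusted over all probe sets, which called 2 of the 13 members (Gapdh and Pgam1) higher than in adjacent lung and 3 (with Pkm) higher than in non-transgenic lung, and 591 and 1489 probe sets in all where limma called 6765 and 7652. With each array left out in turn the counts were 11 to 12 and 9 to 12; the highest count of both was without tumor 2, when 1416069_AT of Pfkp was added, and the lowest was without tumor 1. The brightest probe set of each gene gave 9 of 10. As the set was chosen with these contrasts known, nothing is read from these counts. The dim Pfkp probe set 1430634_A_AT changed sign when arrays were left out, from -0.021 (without tumor 1) to 0.44 against adjacent lung and from -0.37 to 0.089 (without tumor 3) against non-transgenic lung. The methods' analysis of variance over 3 groups called 11 members before adjustment, with 39.7% of all probe sets tested. After adjustment it called 10 members, with 5733 of the 23538 probe sets tested. Median centring moved the median of all probe sets by 0.12 for tumor minus adjacent lung, and the member median to 1.38.

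With the replicate number as a block 11 members were called in each tumor comparison, and with the mouse as a random block again 11, so the block changed no count of members. Of all probe sets tested, 26.3% and 29.9% were called in either direction with the replicate number, and 30.5% and 32.5% with the mouse. After subtraction of group means, tumor and adjacent lung with number 1, 2, 3 or 4 correlated by -0.03, 0.10, 0.07 and 0.11, and only 1 of the 4 tumors had its own number as the best match. With 4 pairs from an inbred strain, this check cannot show whether a pair came from 1 mouse. The samples were treated as sharing only a number. With 4 arrays per group, GCRMA or Robust Multichip Average values without detection calls, and 1 tumor and 1 lung that stood apart, differences near those of Pfkp were at the limit of what could be called.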
